A study of Mus musculus with 55 samples.

Results

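Messenger RNA levels of 10 mouse genes that control the pausing and release of RNA polymerase II were compared in oocytes. In these the helicase DHX36 was targeted, or a ligand of RNA G-quadruplexes was given. The genes were chosen by name and not by a cut on their values, but with earlier results of these data known. They were the 4 subunits of the negative elongation factor NELF (Whsc2, Cobra1, Th1l and Rdbp, the older symbols of Nelfa, Nelfb, Nelfcd and Nelfe), the large DSIF subunit gene Supt5h, the histone chaperone gene Supt6h, and 4 genes of the super elongation complex (Aff1, Aff4, Ell2 and Mllt3). They are 10 of the 33924 genes of the first count table, and all 10 were found again in the second table, of 37310 genes, by identical exon coordinates. Each of the 10 passed the filter on low counts in every comparison.

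NELF and DSIF bind RNA polymerase II shortly after it starts and hold it near the promoter. The kinase CDK9, with its cyclin T partner, then phosphorylates both factors, after which NELF leaves and DSIF travels on as a factor that helps elongation. The super elongation complex is built on the scaffolds AFF1 or AFF4 and brings CDK9 together with an ELL elongation factor and with a chromatin reader such as MLLT3. Growing oocytes transcribe heavily to stock the egg with RNA, and transcription falls silent when they are fully grown, at the germinal vesicle (GV) stage. DHX36, also called RHAU, is a DEAH-box helicase that unwinds G-quadruplexes, which are stacked four-stranded folds of G-rich RNA or DNA.

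The RNA-seq libraries came from 4 experiments. Growing oocytes of control mice (3 libraries) were set against growing oocytes carrying floxed Dhx36 alleles together with an element labelled SKO, which the labels do not spell out (3 libraries, "sko" below). A second experiment held libraries labelled c and rhau_sko, without or with DRB, a nucleoside analog that inhibits CDK9; after the shallow libraries c_DRB replicate 4 and rhau_sko replicate 6 were left out, under the rule of at least 200000 counts, it had 2 libraries of c, 1 of c_DRB, 1 of rhau_sko and 2 of rhau_sko_DRB. The third experiment compared GV oocytes labelled C (3 libraries) with GV oocytes labelled cPDS and 12 h (3 libraries), the abbreviation used for carboxypyridostatin, a ligand of RNA G-quadruplexes. The fourth compared libraries labelled Trim21 at 3 h (3 libraries) with their 3 h controls (3 libraries), from Trim-Away, a method in which the ubiquitin ligase TRIM21 destroys an antibody-bound protein. The labels name ovary as tissue and oocyte as cell type, and give no age, strain, Cre driver, dose or number of oocytes; whether replicates came from separate animals is not stated, so p-values measure only the spread between these libraries, which may be technical.

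Totals ran from 31930695 to 41075545 counts in the growing libraries, from 23010562 to 40968105 in the 6 of the second experiment, between 26509060 and 65444652 at the GV stage and between 7452742 and 32704737 in the Trim-Away set. Dhx36 mRNA was lower in sko than in control growing oocytes by -2.01 on the log2 scale and lower in the second experiment by -2.74, with edgeR adjusted p-values of 4.24e-06 and 8.59e-07. The shallow rhau_sko replicate 6 went against its label, with 6 Dhx36 counts among 127927, at 46.9 CPM (the usual count relative to the library total), close to the level in c; it and c_DRB replicate 4 held 51 and 57 counts over the 10 genes together, and results with all 8 libraries are given beside the calls they change. Dhx36 was higher after cPDS by 0.73 (edgeR adjusted p = 1.82e-05) and lower in the Trim21 libraries by -1.99 (edgeR adjusted p = 1.43e-05). Trim21 was higher there by 9.17 (edgeR adjusted p = 4.41e-13). Trim-Away acts on protein, which these counts do not measure, and the cause of the lower Dhx36 mRNA was not tested. Among 15 oocyte markers none was at 0 in any experiment, and they took 1.09 to 4.73% of the counts in each library.

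Promoter sequence was looked up because the study is about G-quadruplexes, and to show which of these genes carry the letters of such a fold at their start. RefSeq windows of GRCm38.p6, from 250 bases before to 50 bases after an annotated start, were found for 8 of the 10 genes, with 10 windows in all; Th1l and Rdbp had no entry. The motif searched was 4 runs of at least 3 G with 1 to 7 bases of any kind between the runs (GGGN, with N from 1 to 7 bases, written 3 times and closed by GGG), or the same in C for the other strand; both strands were read without overlapping matches. It stood in 18.6% of all 32851 windows of the same length, in 10.5% on the gene's strand and in 9.35% on the other. Of the 8 genes it was found for 4, Aff1, Aff4, Ell2 and Mllt3, which are the super elongation complex genes among the 10, and in 4 of the 10 windows. Aff1 and Mllt3 each also had a window without it. The Aff1 window with the motif, which is not printed below, held 2 matches on the gene strand, the first from -177 to -155. No share per gene is given over all genes, so only the count of windows can be set beside the 18.6%. No match stood in the windows of Whsc2, Cobra1, Supt5h or Supt6h. The 3 windows that follow first hold the motif, in capitals, for Ell2 on the gene strand from base -29 to -8 before the start (chr13:75707234-75707533, plus strand), for Aff4 on the other strand from -181 to -159 (chr11:53350517-53350816, plus strand) and for Mllt3 on the other strand from -12 to 7 (chr4:88033358-88033657, minus strand). The last 2, of Cobra1 (chr2:25211440-25211739, minus strand) and Supt5h (chr7:28338670-28338969, minus strand), hold none and are shown because these genes also changed in growing sko oocytes.
Ell2: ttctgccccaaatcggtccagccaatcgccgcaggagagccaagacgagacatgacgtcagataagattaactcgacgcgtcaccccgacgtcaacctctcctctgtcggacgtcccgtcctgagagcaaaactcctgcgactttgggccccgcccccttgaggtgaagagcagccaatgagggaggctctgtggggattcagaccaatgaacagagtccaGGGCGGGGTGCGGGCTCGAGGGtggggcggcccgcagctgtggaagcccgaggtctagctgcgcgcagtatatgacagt
Aff4: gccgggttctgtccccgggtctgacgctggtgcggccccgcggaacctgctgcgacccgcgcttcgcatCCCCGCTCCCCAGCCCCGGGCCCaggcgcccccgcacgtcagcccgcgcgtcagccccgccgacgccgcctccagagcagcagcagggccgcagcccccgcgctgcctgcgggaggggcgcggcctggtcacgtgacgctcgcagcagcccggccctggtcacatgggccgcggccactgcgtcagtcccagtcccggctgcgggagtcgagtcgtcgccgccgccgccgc
Mllt3: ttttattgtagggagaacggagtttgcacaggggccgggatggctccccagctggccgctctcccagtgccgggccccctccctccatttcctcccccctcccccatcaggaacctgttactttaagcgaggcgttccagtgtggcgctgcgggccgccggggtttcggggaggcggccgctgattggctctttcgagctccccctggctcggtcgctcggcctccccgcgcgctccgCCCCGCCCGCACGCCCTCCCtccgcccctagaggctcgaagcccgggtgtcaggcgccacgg
Cobra1: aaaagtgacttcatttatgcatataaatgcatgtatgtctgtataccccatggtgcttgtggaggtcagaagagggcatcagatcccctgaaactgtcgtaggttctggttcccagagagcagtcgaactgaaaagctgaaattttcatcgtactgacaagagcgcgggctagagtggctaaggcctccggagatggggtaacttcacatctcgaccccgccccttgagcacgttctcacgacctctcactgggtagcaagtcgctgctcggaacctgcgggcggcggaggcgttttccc
Supt5h: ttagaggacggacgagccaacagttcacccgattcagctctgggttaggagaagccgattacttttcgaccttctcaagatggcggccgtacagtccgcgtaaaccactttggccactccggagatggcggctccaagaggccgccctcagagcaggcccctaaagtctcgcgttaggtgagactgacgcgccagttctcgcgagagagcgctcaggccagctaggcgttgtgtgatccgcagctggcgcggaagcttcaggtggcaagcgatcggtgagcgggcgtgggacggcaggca
The windows differed in base composition. GC content was 61.3% for Ell2 and Supt5h, 79.0% for Aff4, 70.3% for Mllt3 and 53.0% for Cobra1, against a median of 52.7% over all windows. Among the windows not printed it was 63.0% for Aff1 with the motif and 77.3% for Aff1 without it. It was 65.3% for Whsc2, 59.3% for Supt6h and 44.7% for the Mllt3 window without the motif. Among the genes with the motif, Ell2 and Aff4 rose in growing sko oocytes, Mllt3 fell and Aff1 was not called (-0.01); the call of Aff4 was lost in 5 of the 6 fits without 1 library. Among those without it, Cobra1 rose, Supt5h and Supt6h fell and Whsc2 was not called (-0.24). A match describes letters and is not a measured fold.

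**Figure D1:**
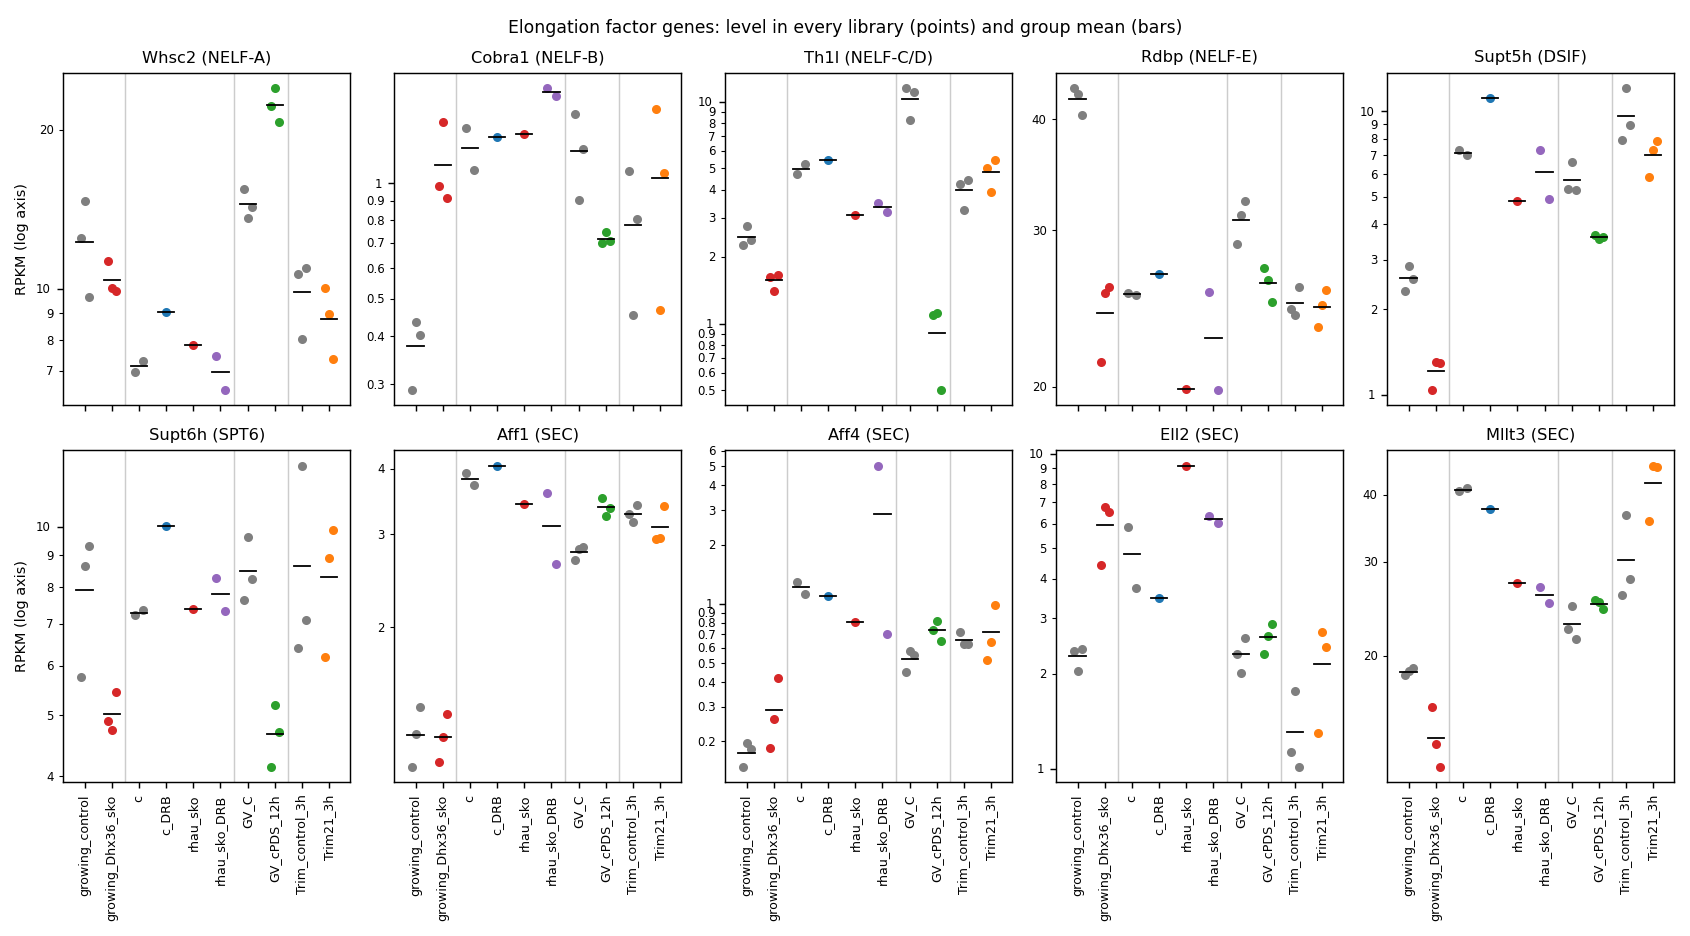
Level of each of the 10 genes in every library, in RPKM (CPM on a TMM-scaled library size, divided by exon length in kilobases) on a log axis; points are libraries, bars are group means, and grey lines part the 4 experiments. Th1l sits between 0.504 and 1.11 RPKM in the 3 cPDS libraries and between 8.28 and 11.5 in the 3 GV_C libraries.

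Levels between genes were compared per length, as RPKM, and levels within a gene as CPM, both on library sizes scaled by TMM within each experiment. In growing control oocytes Rdbp was the most abundant of the 10 at 42.2 RPKM, followed by Mllt3 at 18.7, Whsc2 at 12.3 and Supt6h at 7.92. Supt5h, Th1l and Ell2 came next at 2.57, 2.47 and 2.27 RPKM, and the ranges of neighbours among these 3 overlapped. Aff1 at 1.25, Cobra1 at 0.377 and Aff4 at 0.175 RPKM were the lowest, without overlap between neighbours. Rdbp and Mllt3 held the first 2 places in every group, with Mllt3 first in the 4 groups of the second experiment and in both Trim-Away groups. Cobra1 and Aff4 held the last 2 places in each group. The scaling was done within each experiment, so levels were not tested between experiments.

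The NELF complex is assembled from its subunits in equal parts, but protein was not measured here. Its 4 transcripts were unequal in RPKM, which also rests on the exon length used, in every library. In growing control oocytes Rdbp, which encodes the RNA-binding subunit NELF-E, made up 70.5 to 76.4% of the summed RPKM of the 4 genes, and Cobra1, which encodes the scaffold subunit NELF-B, 0.498 to 0.762%. In growing sko oocytes the share of Rdbp was 60.6 to 67.5% and that of Cobra1 2.39 to 3.76%. In GV_C oocytes Th1l, which encodes NELF-C/D, made up 15.3 to 20.02% and Whsc2, which encodes NELF-A, 24.2 to 26.9%. After cPDS these shares were 1.08 to 2.15% for Th1l and 43.3 to 45.9% for Whsc2. The 4 genes summed to 54.0 to 59.0 RPKM in GV_C and to 46.8 to 52.2 RPKM after cPDS. In these GV oocytes the make-up thus moved more than the sum. In growing oocytes the sum was 52.9 to 60.6 RPKM in control and 35.2 to 38.4 RPKM in sko, without overlap. There the sum fell as the shares moved.

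**Figure D2:**
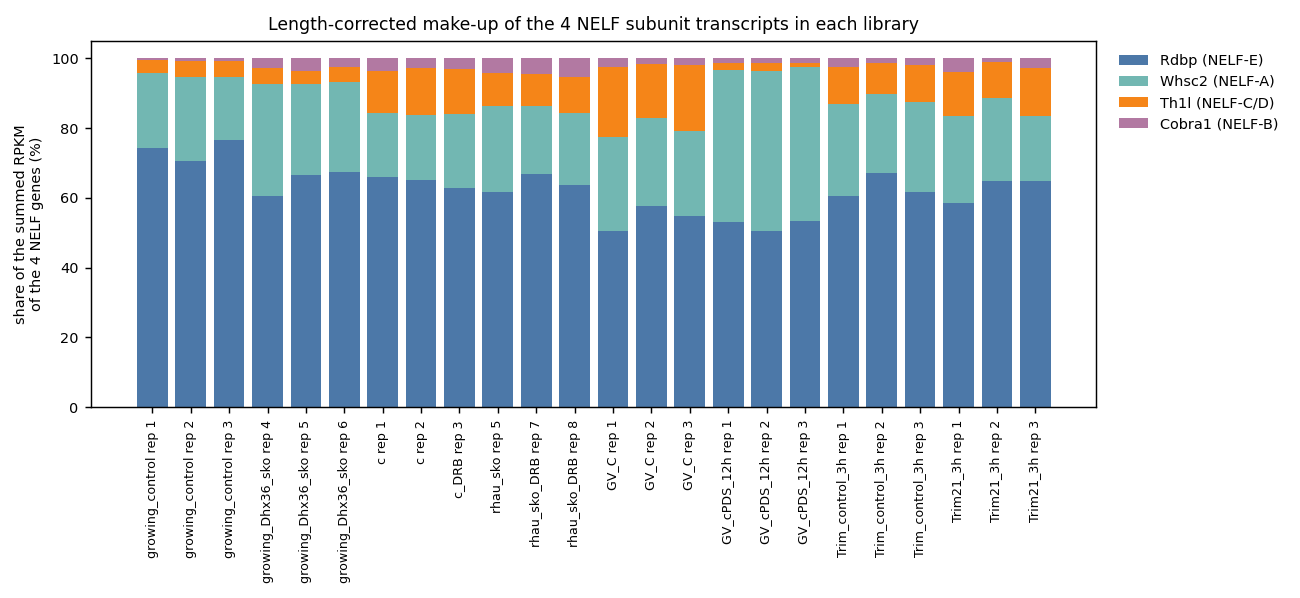
Share of the summed RPKM of the 4 NELF genes taken by each gene (y axis, percent) in every library (x axis); each bar is 1 library and its colours are Rdbp, Whsc2, Th1l and Cobra1. The orange Th1l part is 15.3 to 20.02% in the GV_C libraries and 1.08 to 2.15% after cPDS.

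Growing sko oocytes were set against growing controls first. In that comparison 8 of the 10 genes were called: Cobra1, Aff4 and Ell2 rose, and Th1l, Rdbp, Supt5h, Supt6h and Mllt3 fell. Of all 14081 genes tested 28.5% were called higher and 25.2% lower, so the 10 genes sat in a comparison where most genes were called. The median log2 fold change of the 10 was -0.33, beside 0.02 over all genes. Each library is a bulk RNA sample, in which fewer cells of a type and less RNA per cell cannot be told apart.

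The gene of the scaffold subunit NELF-B, Cobra1 (chr2:25055232-25067009, minus strand, mm9), stood at 0.997, 1.50 and 1.38 CPM in control and at 3.36, 4.94 and 3.15 CPM in sko. All 3 sko libraries lay above all 3 controls, at low counts (36 to 45 in control, 120 to 190 in sko). It rose by 1.57 ± 0.29 (log2, SE; edgeR adjusted p = 2.83e-04). Rdbp (chr17:34987336-34993317, plus strand, mm9) stood at 90.0, 88.7 and 83.9 CPM in control and at 44.3, 52.9 and 53.8 CPM in sko. The groups were well apart, and Rdbp fell by 0.80 ± 0.12 (log2, SE; edgeR adjusted p = 5.47e-05). Th1l (chr2:174241305-174253003, plus strand, mm9) was at 6.51, 7.96 and 6.85 CPM in control and at 4.70, 4.03 and 4.80 CPM in sko. The groups did not overlap, and it fell by 0.66 ± 0.19 (log2, SE; edgeR adjusted p = 0.00853); with library size alone as scaling the call was lost (-0.47, edgeR adjusted p = 0.0641). Whsc2 (chr5:34239585-34279062, minus strand, mm9) overlapped between the groups, at 61.5, 72.2 and 47.7 CPM against 55.6, 49.4 and 48.8 CPM, and was not called (-0.24, edgeR adjusted p = 0.183); without control replicate 3 it was called lower (-0.40, edgeR adjusted p = 0.0148).

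SPT5, the DSIF subunit that contacts the polymerase and the nascent RNA, is encoded by Supt5h (chr7:29099917-29123738, minus strand, mm9). Its level was 8.17, 9.96 and 8.96 CPM in control and 3.66, 4.58 and 4.53 CPM in sko. Every sko library lay below every control, and Supt5h fell by 1.08 ± 0.19 (log2, SE; edgeR adjusted p = 1.55e-04). Supt6h (chr11:78020248-78059489, minus strand, mm9), which encodes a chaperone that puts histones back behind the polymerase, stood at 40.9, 61.4 and 66.2 CPM in control and at 34.7, 33.6 and 38.7 CPM in sko. The lowest control was close to the highest sko library without overlap, and Supt6h fell by 0.65 ± 0.16 (log2, SE; edgeR adjusted p = 0.00281). The overlapping gene Sdf2, which shares 242 bases with it on the other strand (3.41% of the length of Supt6h), also fell (-0.37, edgeR adjusted p = 0.0141).

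Among the super elongation complex genes, Ell2 (chr13:75844932-75909804, plus strand, mm9), which encodes an ELL-family factor that suppresses pausing along the gene, stood at 8.62, 7.46 and 8.77 CPM in control and at 16.1, 24.8 and 23.9 CPM in sko. The groups did not overlap, and Ell2 rose by 1.38 ± 0.18 (log2, SE; edgeR adjusted p = 8.56e-06). Mllt3 (chr4:87415829-87679268, minus strand, mm9), whose YEATS domain reads acylated histones, stood at 221, 225 and 227 CPM in control and at 192, 164 and 149 CPM in sko. The controls were nearly level and the sko libraries were lower and more spread. It fell by 0.41 ± 0.12 (log2, SE; edgeR adjusted p = 0.0103), a call lost with library size alone (edgeR adjusted p = 0.130) and without sko replicate 6 (edgeR adjusted p = 0.0817).

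Both AFF scaffold genes were less clear. Aff4 (chr11:53164335-53235332, plus strand, mm9) stood at 1.99, 2.63 and 2.45 CPM in control and at 2.48, 3.51 and 5.64 CPM in sko, with overlap. It rose by 0.72 ± 0.29 (log2, SE; edgeR adjusted p = 0.0493), and the call was lost in 5 of the 6 fits that left out 1 library. The lowest of these was 0.35 (edgeR adjusted p = 0.370) without sko replicate 6. Aff1 (chr5:104121393-104284341, plus strand, mm9) stood at 10.3, 11.9 and 13.4 CPM in control and at 10.5, 11.7 and 12.9 CPM in sko, nearly the same ranges. Its difference was -0.01, with a 95% interval from -0.33 to 0.30, and it had the other sign with library size alone (0.17).

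Scaling and other cells moved with this comparison. When libraries were scaled by their size and not by TMM, the median of all genes was 0.21, not 0.02, and the calls split into 4825 higher and 2386 lower, not 4017 and 3549. Granulosa and cumulus markers, 14 in all, summed to 0.00235 to 0.00271% of counts in control and to 0.00859 to 0.00897% in sko; 9 of them were tested, 5 were called higher, 0 lower, and none was at 0 in all 6 libraries. Theca and stroma markers summed to 0.000273 to 0.000323% and to 0.000502 to 0.000869%, with 2 of 3 tested called higher. Immune, endothelial and blood markers summed to 0.00116 to 0.00135% and to 0.000935 to 0.00120%, with 1 of 4 tested called higher and 2 lower, and Cd52 at 0. Oocyte markers summed to 4.42 to 4.73% and to 4.11 to 4.61%, with 3 of 15 higher and 6 lower. The part of other cells in the changes of the 10 genes was not tested.

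**Figure D3:**
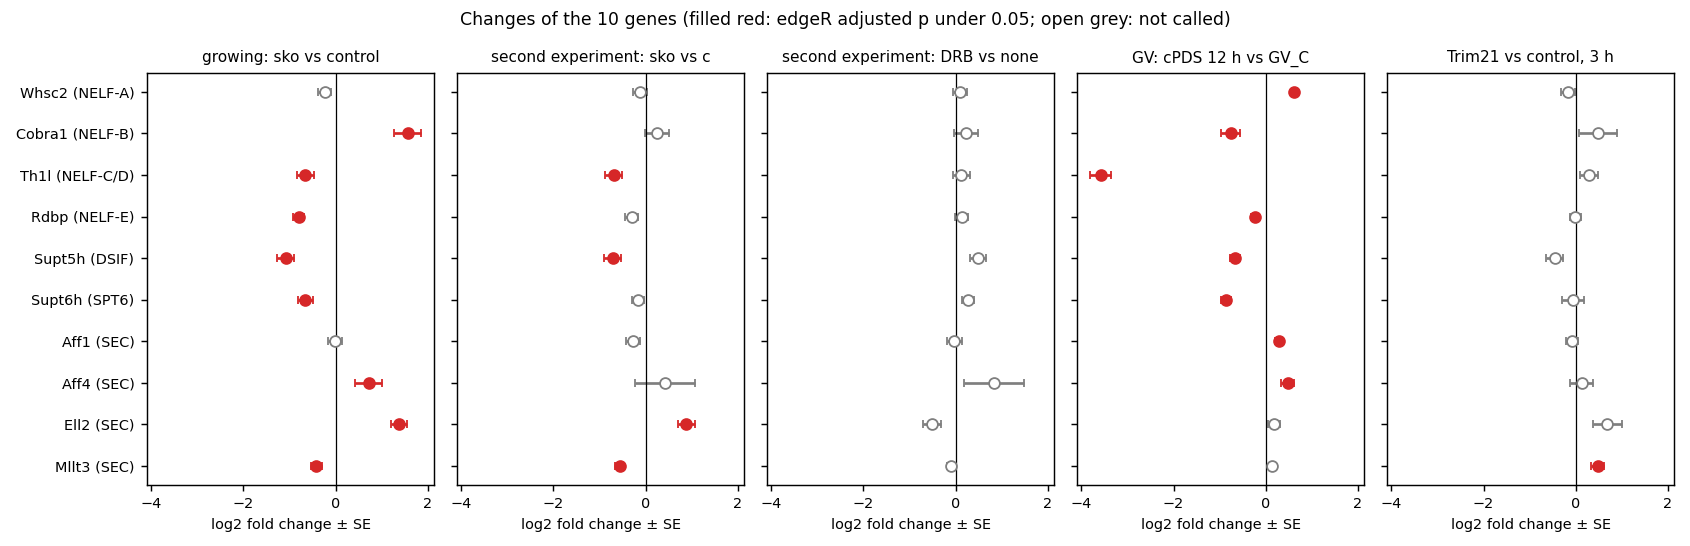
Log2 fold change (x axis) of each of the 10 genes (y axis) in 5 comparisons, with bars of 1 SE; filled red points passed an edgeR adjusted p of 0.05 and open grey points did not. The point farthest from 0 is Th1l after cPDS, at -3.58, and no gene is filled in the DRB panel.

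The second experiment asked the same of rhau_sko against c, with DRB as a covariate. Here 4 of the 10 genes were called: Ell2 rose, and Th1l, Supt5h and Mllt3 fell. Among all 18178 genes tested 17.3% were called higher and 16% lower, and the median of the 10 was -0.22 beside 0.01 over all genes. The 4 genes had been called in the same direction in growing oocytes, where 28.5% of all genes were called higher and 25.2% lower. The share of all genes called alike in both experiments was not computed, so this overlap has no background beside it. Each call was lost in at least 1 other setting, with all 8 libraries kept for Th1l, Supt5h and Mllt3 (edgeR adjusted p = 0.114, 0.110 and 0.0889).

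Ell2 stood at 21.3 and 13.6 CPM in c, 12.7 in c_DRB, 33.4 in rhau_sko, and 23.1 and 22.0 in rhau_sko_DRB. The sko libraries all lay above the c libraries, and Ell2 rose by 0.88 ± 0.19 (log2, SE; edgeR adjusted p = 0.00391). Leaving out the single rhau_sko library without DRB kept the difference at 0.83 ± 0.29 (log2, SE) but lost the call (edgeR adjusted p = 0.0666). Mllt3 stood at 488 and 495 CPM in c, 452 in c_DRB, 329 in rhau_sko, and 323 and 301 in rhau_sko_DRB. The genotypes did not overlap, and it fell by 0.56 ± 0.10 (log2, SE; edgeR adjusted p = 0.00101).

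Th1l stood at 13.6 and 15.03 CPM in c, 15.7 in c_DRB, 8.93 in rhau_sko, and 10.1 and 9.20 in rhau_sko_DRB. The genotypes were apart, and Th1l fell by 0.69 ± 0.19 (log2, SE; edgeR adjusted p = 0.0136); it was not called without c_DRB replicate 3 (0.0937) or without rhau_sko replicate 5 (0.0612). Supt5h stood at 25.6 and 24.6 CPM in c, 39.1 in c_DRB, 17.0 in rhau_sko, and 25.7 and 17.2 in rhau_sko_DRB. Replicate 7 of rhau_sko_DRB reached the c libraries, so the genotypes overlapped. Supt5h fell by 0.72 ± 0.18 (log2, SE; edgeR adjusted p = 0.00908), and without c_DRB replicate 3 the edgeR adjusted p was 0.158.

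The scaffold gene Aff4 had 1 library that stood apart. It was at 17.4 and 15.2 CPM in c, 14.8 in c_DRB and 10.9 in rhau_sko, but at 67.9 CPM in rhau_sko_DRB replicate 7 (1584 counts) against 9.42 CPM in replicate 8 (259 counts). With all 6 libraries the difference was 0.42 ± 0.65 and not called (edgeR adjusted p = 0.669). Without replicate 7 it was -0.60 and called lower (edgeR adjusted p = 0.0391), the opposite direction to the rise in growing oocytes. The other genes not called here were Whsc2 (-0.12), Cobra1 (0.26), Rdbp (-0.30), Supt6h (-0.17) and Aff1 (-0.27). Rdbp was called lower without rhau_sko_DRB replicate 7 (-0.39, edgeR adjusted p = 0.0443).

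In this experiment oocyte markers summed to 1.73 to 1.98% of counts in c libraries and to 1.09 to 1.29% in sko libraries, with 1 of 15 called higher and 10 lower. Granulosa and cumulus markers summed to 0.00690 to 0.00960% and to 0.0114 to 0.0153%, with 4 of 12 tested called higher and Amh at 0 in all 6 libraries. Theca and stroma markers summed to 0.000322 to 0.000469% in c and 0.000601 to 0.000974% in sko, with 1 of 4 tested higher. Immune, endothelial and blood markers summed to 0.00412 to 0.00492% and to 0.00235 to 0.00329%, with 1 of 4 tested higher and 3 lower, and both hemoglobin genes Hbb-b1 and Hba-a1 at 0. Their part in the changes of the 10 genes was not tested.

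The difference between the sko effects of both experiments was tested in 1 fit over their 12 libraries. It was called for Cobra1, and for none of the other 9 genes. The rise of Cobra1 in growing oocytes exceeded that in the second experiment by 1.33 ± 0.40 (log2, SE; edgeR adjusted p = 0.0340). In the second experiment Cobra1 was at 4.77 and 3.71 CPM in c, 4.51 in c_DRB, 4.61 in rhau_sko, and 6.05 and 5.78 in rhau_sko_DRB, with overlap between the genotypes. Over all 18781 genes 7.07% were called with a higher and 4.31% with a lower sko effect in growing oocytes. The call of Cobra1 was lost in 9 of 15 other settings, namely without any 1 of the 6 growing libraries, c replicate 1, c_DRB replicate 3 or rhau_sko replicate 5 (edgeR adjusted p from 0.0501 to 0.152). For Rdbp the difference was -0.48 (edgeR adjusted p = 0.100); without growing control replicate 3 it was called (-0.63, edgeR adjusted p = 0.0349), as it was by DESeq2 (-0.59, adjusted p = 0.0108). Supt6h, at -0.46, was called without growing control replicate 1 (-0.75, edgeR adjusted p = 0.0102), and Aff4, at 0.32, without rhau_sko_DRB replicate 7 (1.34, edgeR adjusted p = 0.0278). For Ell2 the difference was 0.51, with a 95% interval from -0.01 to 1.04.

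DRB, the CDK9 inhibitor, was set against no DRB with genotype as a covariate. None of the 10 genes was called by edgeR, 2 had an unadjusted p under 0.05, and DESeq2 called 0. By the same edgeR test 2188 of all 18178 genes had an unadjusted p under 0.05. Of all 18178 genes 0.0165% were called higher and 0.0495% lower, 12 in all, while DESeq2 called 601 genes and edgeR without a filter on low counts 492. The 2 genes were Supt5h, at 0.49 ± 0.18 (log2, SE; edgeR adjusted p = 0.301), and Ell2, at -0.51 ± 0.19 (log2, SE; edgeR adjusted p = 0.305). For Supt5h the single c_DRB library, at 39.1 CPM, was above both c libraries. Mllt3 differed by -0.10, with a 95% interval from -0.29 to 0.09. Aff4 was at 0.83 with all libraries and at -0.17 without rhau_sko_DRB replicate 7; without the filter it was called (0.84, edgeR adjusted p = 0.00930). The fit that gave each group its own term, which has 2 residual degrees of freedom, tested whether DRB acted differently in sko and c. None of the 10 was called there, 0 had an unadjusted p under 0.05, and DESeq2 called 0. Of all 18178 genes edgeR called 0.011% higher and 0.022% lower there, and 1493 had an unadjusted p under 0.05. Aff4, at 1.96, was called there without rhau_sko_DRB replicate 8 (2.78, edgeR adjusted p = 3.47e-04) and without the filter (1.98, edgeR adjusted p = 1.64e-05), and stood at -0.07 without replicate 7.

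The largest difference of any of the 10 genes in these comparisons, that of Th1l, was between the cPDS and GV_C libraries. The labels give 12 h for cPDS and no time for GV_C, so the ligand and the 12 h cannot be told apart. In the cPDS libraries 8 of the 10 were called: Whsc2, Aff1 and Aff4 rose, and Cobra1, Th1l, Rdbp, Supt5h and Supt6h fell. Of all 16115 genes tested 23.4% were called higher and 27.4% lower. The median of the 10 was -0.06 beside 0.01 over all genes, since higher and lower members offset each other.

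Th1l had 2180, 1429 and 1841 counts in GV_C and 124, 84 and 91 counts after cPDS, or 33.1, 23.9 and 32.0 CPM against 3.17, 3.21 and 1.45 CPM. The groups were far apart. Th1l fell by 3.58 ± 0.23 (log2, SE; edgeR adjusted p = 3.58e-09), to 0.0837 times its GV_C level, and the leave-one-out fits ran from -3.79 to -3.21. The other strand holds Ctsz, which shares 10 bases with Th1l and was also called lower (-2.48, edgeR adjusted p = 0.00380), at a far lower level (a mean of -1.76 log2 CPM); its part in the change of Th1l was not tested. The remaining NELF genes split in direction. Whsc2 stood at 76.1, 67.2 and 70.3 CPM in GV_C and at 109, 118 and 102 CPM after cPDS, without overlap. It rose by 0.62 ± 0.08 (log2, SE; edgeR adjusted p = 8.82e-06). Whsc2 shares 1040 bases, 21.1% of its length, with Whsc1 on the other strand, and the strand setting of the counting is not given in the sources used here; Whsc1 itself differed by -0.03 (edgeR adjusted p = 0.808).

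Cobra1 stood at 5.18, 3.09 and 4.21 CPM in GV_C and at 2.40, 2.56 and 2.43 CPM after cPDS. The groups did not overlap, and it fell by 0.76 ± 0.20 (log2, SE; edgeR adjusted p = 0.00530), whereas it had risen in growing sko oocytes. Rdbp stood at 60.0, 64.8 and 67.3 CPM in GV_C and at 56.4, 54.8 and 51.7 CPM after cPDS. It fell by 0.24 ± 0.08 (log2, SE; edgeR adjusted p = 0.0194), a small difference that was not called in 3 of the fits without 1 library (GV_C replicate 3, cPDS replicate 2 or cPDS replicate 3, edgeR adjusted p = 0.108, 0.0610 and 0.0935) or with a replicate block (-0.24, edgeR adjusted p = 0.0544).

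The DSIF gene Supt5h stood at 18.7, 23.2 and 18.5 CPM in GV_C and at 12.9, 12.4 and 12.6 CPM after cPDS. The treated libraries were close to each other and below each control, and it fell by 0.67 ± 0.11 (log2, SE; edgeR adjusted p = 1.25e-04). Supt6h stood at 54.2, 68.4 and 58.5 CPM and at 29.4, 36.8 and 33.3 CPM, without overlap. It fell by 0.87 ± 0.10 (log2, SE; edgeR adjusted p = 4.88e-06), while Sdf2, its overlapping neighbour, differed by -0.03. Both genes had also fallen in growing sko oocytes, an experiment that shares no library with this one.

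Aff1 and Aff4, the alternative scaffolds, rose after cPDS. Aff1 went from 25.4, 26.6 and 26.8 CPM to 33.3, 30.7 and 31.8 CPM, a rise of 0.28 ± 0.09 (log2, SE; edgeR adjusted p = 0.0118). Aff4 went from 6.03, 7.77 and 7.39 CPM to 9.88, 11.0 and 8.75 CPM, a rise of 0.48 ± 0.14 (log2, SE; edgeR adjusted p = 0.00927) that was not called without GV_C replicate 1 (edgeR adjusted p = 0.0511). Neither gene's groups overlapped. Ell2, at 8.40, 7.34 and 9.47 CPM against 8.40, 9.63 and 10.5 CPM, and Mllt3, at 269, 298 and 258 CPM against 306, 302 and 294 CPM, overlapped and were not called. Their differences were 0.18 with a 95% interval from -0.08 to 0.45 and 0.13 with a 95% interval from -0.01 to 0.26; Mllt3 was called without GV_C replicate 2 (0.19, edgeR adjusted p = 0.0251).

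In these GV libraries oocyte markers summed to 2.68 to 3.06% in GV_C and to 2.77 to 3.16% after cPDS, with 8 of 15 called higher and 5 lower. Granulosa and cumulus markers summed to 0.0112 to 0.0115% and to 0.00914 to 0.0104%, with 2 of 11 tested higher and 2 lower. Immune, endothelial and blood markers summed to 0.00573 to 0.00608% and to 0.00166 to 0.00172%, with 1 of 3 tested lower and Hbb-b1, Hba-a1 and Cd52 at 0. Theca and stroma markers summed to 0.000397 to 0.000428% and to 0.000387 to 0.000704%, with 1 of 3 tested higher. Their part in these changes was not tested.

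The Trim21 libraries were compared with their controls at a single time, 3 h, without a measure of DHX36 protein. Mllt3 rose, and the other 9 genes were not called, where 6.26% of all 14191 genes were called higher and 5.23% lower. The median of the 10 was 0.06 beside -0.01 over all genes. Mllt3 stood at 313, 439.6 and 335 CPM in the 3 h controls and at 429, 545 and 542 CPM in the Trim21 libraries. Control replicate 2 lay above the lowest Trim21 library. The rise was 0.48 ± 0.14 (log2, SE; edgeR adjusted p = 0.0481), opposite in direction to the fall in both sko experiments, and it was not called in 4 of the 6 fits that left out 1 library, without control replicate 1 or 3 or Trim21 replicate 2 or 3 (edgeR adjusted p = 0.181, 0.168, 0.139 and 0.181).

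Of the genes not called there, Supt5h stood at 27.8, 42.3 and 31.3 CPM in control and at 20.6, 25.6 and 27.7 CPM in the Trim21 libraries. The groups met without overlapping, and the difference was -0.46 ± 0.18 (log2, SE; edgeR adjusted p = 0.136). Ell2 stood at 4.12, 6.44 and 3.69 CPM and at 4.73, 9.91 and 8.86 CPM, with overlap and a difference of 0.69 ± 0.31 (log2, SE; edgeR adjusted p = 0.200). Cobra1 differed by 0.48, Th1l by 0.28, Aff4 by 0.12, Rdbp by -0.01, Supt6h by -0.06, Aff1 by -0.08 and Whsc2 by -0.17. The precision was lowest for Cobra1, with 12 counts in Trim21 replicate 2 and an interval from -0.34 to 1.29. Granulosa and cumulus markers summed to 0.00477 to 0.00493% in control and to 0.00690 to 0.00760% in Trim21 libraries, with 1 of 5 tested higher and Amh and Foxl2 at 0; theca and stroma markers summed to 0.000181 to 0.000206% and to 0.000215 to 0.000300%, with none of 3 tested called by edgeR or DESeq2 or at an unadjusted p under 0.05 (0 in each case), and Cyp17a1 and Lum at 0. Oocyte markers summed to 1.63 to 2.26% and to 1.82 to 2.17%, with 1 of 15 lower. Immune, endothelial and blood markers summed to 0.00289 to 0.00393% and to 0.00348 to 0.00431%, again with 0 of 3 in each case, and Ptprc, Cdh5, Hbb-b1 and Cd52 at 0. Their part in the rise of Mllt3 was not tested.

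Set side by side, Supt5h had a negative log2 fold change in both sko experiments (-1.08 and -0.72), after cPDS (-0.67) and in the Trim21 libraries (-0.46), and was called in the first 3. Ell2 was positive in all 4 of these comparisons (1.38, 0.88, 0.18 and 0.69) and was called in both sko experiments. Th1l was lower in 3 and not called in the Trim21 libraries. Cobra1 was higher in growing sko oocytes and lower after cPDS, and Mllt3 was lower in both sko experiments and higher in the Trim21 libraries. These 4 comparisons share no library. How many of all genes keep 1 direction across them was not computed.

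Other genes of the elongation machinery were taken from a list of 58 genes in 10 groups: the DSIF and SPT6 partners, other super elongation genes, the little elongation complex, P-TEFb and its inhibitors, the PAF1 complex, the histone chaperone FACT, DOT1L partners, TFIIS and elongin, CDK12 and CDK13 with other factors, and Integrator. In growing sko oocytes 14 of 55 tested rose and 16 fell, where 28.5% of all genes were called higher and 25.2% lower, with a median of -0.08 beside 0.02 over all genes. The 3 with the smallest p were Ccnt1, the gene of the cyclin T1 that activates CDK9, at 2.14 ± 0.13 (log2, SE; edgeR adjusted p = 4.45e-09), the PAF1 complex gene Wdr61 at 2.25 ± 0.17 (log2, SE; edgeR adjusted p = 3.82e-08) and the elongin A gene Tceb3 at 1.67 ± 0.14 (log2, SE; edgeR adjusted p = 1.30e-07). The PAF1 complex split, with 2 of its 6 genes higher and 4 lower. Integrator, which cleaves nascent RNA at paused polymerase, had 2 of 12 genes higher and 5 lower.

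In the second experiment 8 of 58 rose and 10 fell, where 17.3% of all genes were called higher and 16% lower, shares close to those of the list; its median was 0.07 beside 0.0074 over all genes. The 3 with the smallest p were the PAF1 complex gene Cdc73, which rose by 1.15 ± 0.16 (log2, SE; edgeR adjusted p = 1.90e-04), the TFIIS family gene Tcea3, which fell by 1.03 ± 0.16 (log2, SE; edgeR adjusted p = 4.02e-04), and the Integrator gene Cpsf3l, which fell by 1.41 ± 0.23 (log2, SE; edgeR adjusted p = 5.69e-04). The difference between the sko effects was called for 7 of 58 genes upwards and 5 downwards, where 7.07% and 4.31% of all genes were, with a median of -0.05 beside 0.09. It was led by Wdr61 at 2.00 ± 0.28, Tceb3 at 1.77 ± 0.27 and Ccnt1 at 1.37 ± 0.21 (log2, SE; edgeR adjusted p = 6.01e-05, 1.60e-04 and 1.61e-04). For DRB edgeR called 0 of 58, with 9 at an unadjusted p under 0.05 and 2 called by DESeq2. For its interaction with sko edgeR called 0 of 58, with 8 at an unadjusted p under 0.05 and 0 called by DESeq2. Of all 18178 genes, edgeR gave an unadjusted p under 0.05 to 2188 for DRB and to 1493 for the interaction.

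After cPDS 19 of 57 tested rose and 14 fell, where 23.4% of all genes were called higher and 27.4% lower, with a median of 0.06 beside 0.01. The 3 with the smallest p all fell: Mepce, which encodes the enzyme that caps the 7SK RNA, by 2.31 ± 0.10, the FACT gene Supt16h by 1.99 ± 0.10, and the super elongation gene Ell by 1.49 ± 0.11 (log2, SE; edgeR adjusted p = 4.39e-11, 2.25e-10 and 1.42e-08). Both FACT genes fell, 4 of 7 genes of P-TEFb and its inhibitors fell and 1 rose, and 6 of 12 Integrator genes rose and 1 fell. In the Trim21 libraries 5 of 52 tested rose and 1 fell, where 6.26% of all genes were called higher and 5.23% lower, with a median of 0.016 beside -0.0057. Eaf1, whose product binds ELL proteins, rose by 1.18 ± 0.23 (log2, SE; edgeR adjusted p = 0.00629), Ccnk, the cyclin of CDK12, rose by 0.94 ± 0.24 (log2, SE; edgeR adjusted p = 0.0228), and the elongin C gene Tceb1 fell by 0.37 ± 0.09 (log2, SE; edgeR adjusted p = 0.0173).

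**Figure D4:**
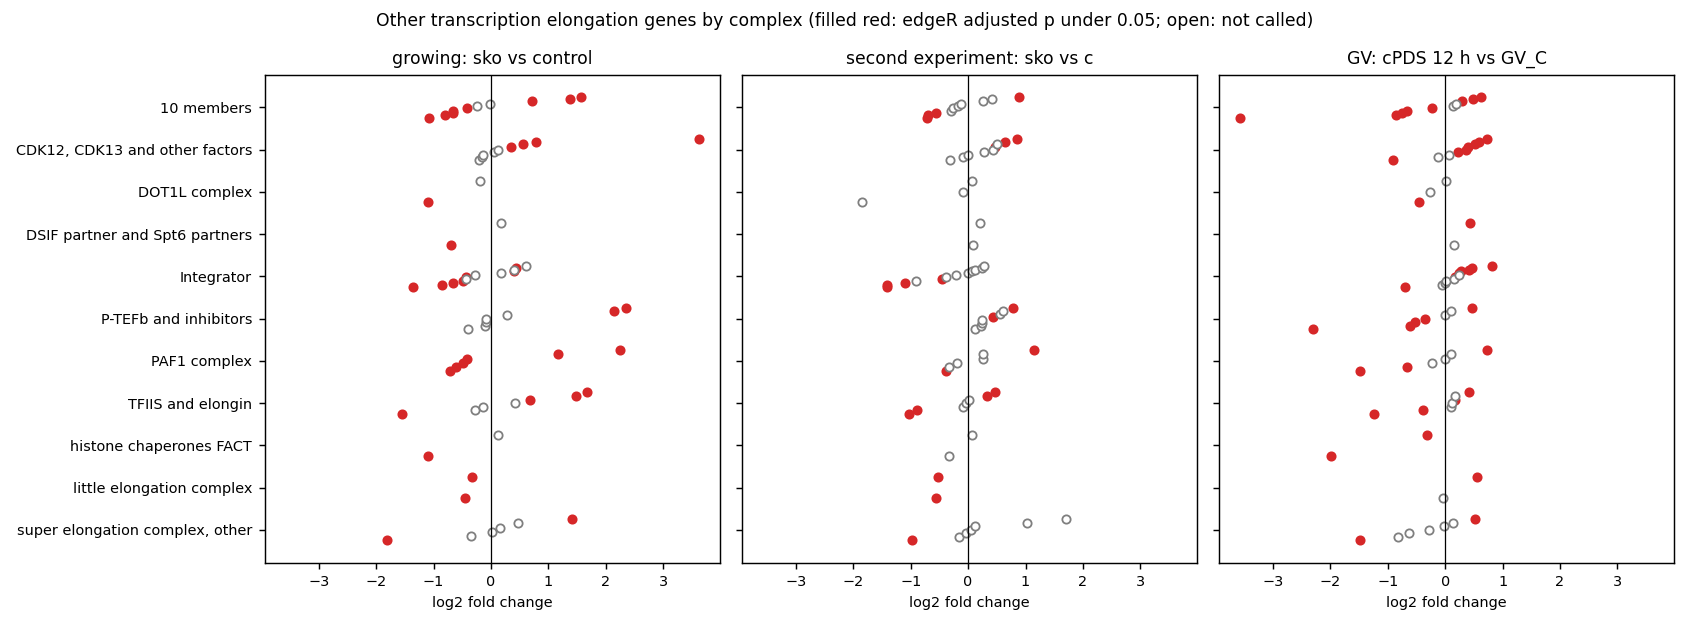
Log2 fold change (x axis) of the 10 genes (top line) and of other elongation genes by complex (y axis) in 3 comparisons; each point is 1 gene, and filled red points passed an edgeR adjusted p of 0.05. Higher and lower genes occur together, as in the PAF1 complex of growing sko oocytes with 2 higher and 4 lower.

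Likeness of pattern was measured by Pearson's r of log2 CPM over the 18 libraries of the first table, which share experiments and scaling, among 5349 genes. These libraries span several experiments, so r also takes in differences between experiments and stages. Each neighbour has the highest or next highest r among the 5349, and how high such values usually run was not computed. The genes nearest to Whsc2 were Noc4l (r = 0.981) and Tpra1 (r = 0.976), those nearest to Rdbp were Ttc1 (0.980) and Hax1 (0.975), and those nearest to Th1l were Acat1 (0.959) and Scamp3 (0.947). Supt5h was nearest to Slc20a1 (0.950) and Lrrc8e (0.929), and Supt6h to Mvp (0.940) and Edc4 (0.936). Aff1 was nearest to Zxdc (0.952) and Ahctf1 (0.943), Ell2 to Lonp2 (0.955) and Rfesd (0.943), and Mllt3 to Eml4 (0.896) and Rbm44 (0.867). Cobra1 and Aff4, the genes with the fewest reads per length, had the weakest neighbours, Ikbkb (0.828) and Vav3 (0.811) for Cobra1 and Rpl22 (0.817) and Mrps28 (0.813) for Aff4. Among the 10 genes themselves the highest r was 0.735, between Rdbp and Supt6h, and the lowest was -0.659, between Rdbp and Aff4. The values of r for Aff4 include rhau_sko_DRB replicate 7, where Aff4 stood at 67.9 CPM against 9.42 CPM in replicate 8. The part of that library in these values was not tested.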

How the data were processed

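Reads were processed by the authors, and the tables start from their counts. Both tables hold whole-number read counts per gene, 1 column per library, in the featureCounts layout per the file headers; the exon length beside them, in bases, is also deposited by the authors. Per the submitters' processing notes the tools included fastp 0.21.0, HISAT2 2.1.0, STAR 2.5.2b and featureCounts 2.0.1, with the mm9 build and with no role given for each. The sources used here do not give the strand setting or the annotation version. Another deposited table that repeats libraries of the first was not used, and assays of binding and of G-quadruplexes were not used here.

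The test was edgeR 4.0.16 under R 4.3.3 (quasi-likelihood test, TMM, filterByExpr with a minimum count of 10, Benjamini-Hochberg over all genes tested, threshold 0.05) in each experiment's own fit. The standard error is the log2 fold change over the root of the F statistic, and 95% intervals are normal intervals from it. DRB entered the sko fit of the second experiment, and genotype the DRB fit, as additive terms. Alternatives were DESeq2 1.42.0, library size alone, no filter, all 8 libraries of the second experiment, leaving out each library in turn and a replicate block; 1 alternative on Aff4 was added after seeing the data and coincides with a library left out in turn. The fits were tested on simulated data. Replicates of a group differed beyond counting noise in every pair (chi-square per degree of freedom from 7.25 to 75.2), so none was merged. Genes of the Trim-Away table were named by identical exon coordinates, which held for 33581 of 37310. Motif windows came from RefSeq.

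The 10 genes and the lists were chosen with earlier results of these data known. Named with values are the 10 genes in each group, Dhx36 and Trim21 as checks of the labels, the 3 called genes of the elongation list with the smallest p in each comparison, and for each of the 10 the 2 genes with the highest Pearson's r of log2 CPM (prior count 2) among genes whose mean log2 CPM was 4 or more and no predicted or clone name. Whsc1, Ctsz and Sdf2 are named because their exons overlap those of the 10, and marker genes at 0 because of their level; these were picked outside that rule.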

Additional observations from a re-analysis of the deposited data

Results flagged for a closer look

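The test of the difference between the sko effects of the growing and the second experiment picked out Cobra1, the NELF-B gene. Its sko effect was higher by 1.33 on the log2 scale in growing oocytes (edgeR adjusted p = 0.0340), and was 1.57 there and 0.26 in the second experiment. Cobra1 rose in each of the 3 growing sko libraries above the controls, at 0.997 to 1.50 CPM in control and 3.15 to 4.94 CPM in sko. Its counts were low, 36 to 45 in control and 120 to 190 in sko. Marker sums of other cells also differed between the genotypes, as given above, and their part in this difference was not tested. Cobra1 was 1 of 10 genes, and over all 18781 genes 7.07% were called with a higher and 4.31% with a lower sko effect in growing oocytes. The call of this difference was lost in 9 of 15 other settings. Over the other settings the difference ran from 1.00 to 1.49, with adjusted p from 0.0199 to 0.152 over the edgeR and DESeq2 fits. No group had 4 or more libraries, so single libraries were not screened by a rule for standing apart within a group. The rhau_sko_DRB library named for Aff4 was picked out after seeing the data.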

How the results depend on the processing

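Over the 22 called results of the 10 genes, 184 of 217 values under another setting kept direction and call and 33 lost the call, none changing sign. Over the 48 results not called, 455 of 502 kept their sign and stayed uncalled, 10 passed the threshold with the same sign and 37 changed sign. The sign changes include Aff4 in the second experiment without rhau_sko_DRB replicate 7 (-0.60), which also passed the threshold. In the second experiment 6058 genes and 4 of the 10 were called between rhau_sko and c; with all 8 libraries 1 of the 10 was called, and without 1 library 3678 to 6028 genes and 2 to 6 of the 10, the lowest without c_DRB replicate 3 (3678) and rhau_sko replicate 5 (4019). For DRB 12 genes were called, 601 by DESeq2, 492 without the filter (1 of the 10), 3 with all 8 libraries and 3 to 34 without 1 library. For the interaction 6 genes were called, 58 by DESeq2, 272 without the filter (1 of the 10), 0 by edgeR with all 8 libraries (937 at an unadjusted p under 0.05), and 30 to 217 genes and 0 to 1 of the 10 without 1 library; it could not be fitted without c_DRB replicate 3 or rhau_sko replicate 5. In the Trim21 comparison, of 1630 genes, 928 to 1936 genes and 0 to 1 of the 10 were called without 1 library, the lowest without Trim21 replicate 3 (928) and replicate 1 (1043). The difference of the sko effects called 2 of the 10 with DESeq2, and without 1 library 1166 to 2446 genes and 0 to 2 of the 10, against 2137 and 1, the lowest without rhau_sko replicate 5; its split of 1328 higher and 809 lower was 1900 and 402 with library size alone and 1361 and 1661 with DESeq2. The cause of these differences was not tested.

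Sign changes fell on results not called. Aff1 was at 0.17 in growing sko with library size alone, and for DRB at 0.010 with library size alone and 0.059 with all 8 libraries. For the interaction with all 8 libraries Th1l was at 0.17 and Ell2 at 0.079, and for the difference of the sko effects Whsc2 was at 0.082 with library size alone and Th1l at -0.054 with DESeq2. With 1 library left out in turn, the values that crossed 0 ran as follows. In growing sko Aff1 ran from -0.12 to 0.061. In the second experiment Whsc2 ran from -0.38 to 0.13, Supt6h from -0.36 to 0.016 and Aff4 from -0.60 to 1.38. For DRB Whsc2 ran from -0.17 to 0.35, Aff1 from -0.13 to 0.086 and Aff4 from -0.17 to 1.82. For the interaction Th1l ran from -0.094 to 0.073, Rdbp from -0.074 to 0.29, Aff4 from -0.071 to 2.78, Ell2 from -0.44 to 0.18 and Mllt3 from -0.00093 to 0.099. In the Trim21 comparison Rdbp ran from -0.054 to 0.017, Supt6h from -0.24 to 0.29 and Aff4 from -0.21 to 0.33. For the difference of the sko effects Whsc2 ran from -0.37 to 0.18, Th1l from -0.099 to 0.096, Aff4 from -0.63 to 1.34 and Mllt3 from -0.063 to 0.19. The depth limits Cobra1 most, with 12 to 341 counts a library.

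With the replicate number as a block 7559 genes were called after cPDS and 1762 in the Trim21 comparison, against 8191 and 1630. Of the 10 genes the block changed 1 call, that of Rdbp after cPDS (-0.24, edgeR adjusted p = 0.0544). The deviations of same-numbered libraries correlated at -0.059, -0.033 and -0.037 for cPDS and at 0.075, 0.091 and -0.049 for Trim21, so the numbers were not taken as pairs; not every library correlated best with its own number. The other groups compared share no replicate numbers.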
